A study of Rattus norvegicus with 18 samples.

Results

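S100 genes encode a family of small calcium-binding proteins, and 9 of them (S100a1, S100a4, S100a5, S100a6, S100a8, S100a9, S100a10, S100a11 and S100a13) were followed in primary cultured cells of the rat inner medullary collecting duct (IMCD). All features whose single symbol in the platform's gene table was 1 of these 9 names were taken, which gave 12 features among the 28328 on the array. S100a11 had 4 features and each other gene had 1. The genes were chosen by their family name, with measured differences between these same groups already in view, among them the rise of S100a5 at 900 mosmol/kg. Their levels and test calls are therefore a description and not independent evidence.

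Total RNA was read on 18 whole-transcript arrays in 6 groups of 3. The 300 culture and the 600 culture were grown at 300 and 600 mosmol/kg. For the 600 challenge, cells grown at 300 mosmol/kg spent 24 h at 600 mosmol/kg, and for the 900 challenge cells grown at 600 mosmol/kg spent 24 h at 900 mosmol/kg. Both challenges were repeated in the presence of 5 µM cyclosporin A, a drug that blocks the calcium-activated phosphatase calcineurin. No group was a mock step at unchanged osmolality, so the osmotic step cannot be told apart from the move and the extra time in culture. Whether the 3 arrays of each group stem from separate animals or dishes is not in the labels, and the p-values therefore measure only their spread, which may be technical.

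S100 proteins carry a pair of EF-hand calcium-binding loops and mostly work as dimers. Calcium opens a surface on the dimer that binds target proteins such as annexins, myosin, enzymes and ion channels, so each member links a calcium signal to its own partners. Some members also act outside the cell: the S100A8 and S100A9 pair, called calprotectin, is abundant in neutrophils and monocytes, binds zinc and manganese and signals through TLR4 and RAGE. The inner medulla is the part of the kidney where collecting duct cells meet the highest and most variable osmolality.

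Most of the members lie side by side on chromosome 2, and the sequences just before the start sites of 4 of them are shown because S100a5 lies directly between S100a4 and S100a6 but differed from both in direction between the cultures, and S100a9 lies at the other end of the row. RefSeq's promoter table on GRCr8 held 6 of the 9 members. It was searched on both strands for TATAAA, for the NFAT core GGAAA, for the AP-1 site TGANTCA, for the C/EBP site TTNNGCAA and for the tonicity element TonE, with GGAAA also able to lie inside a TonE match. Each run below is the 250 bases before the start, read on the gene's strand, with TATAAA and with GGAAA or its complement TTTCC in capitals.
S100a4 (chr2:178388279-178388528, plus strand): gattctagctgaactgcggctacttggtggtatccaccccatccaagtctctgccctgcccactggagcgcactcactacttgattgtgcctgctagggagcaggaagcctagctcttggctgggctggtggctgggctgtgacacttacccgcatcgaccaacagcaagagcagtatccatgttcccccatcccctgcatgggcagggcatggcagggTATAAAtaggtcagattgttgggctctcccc
S100a5 (chr2:178394871-178395120, plus strand): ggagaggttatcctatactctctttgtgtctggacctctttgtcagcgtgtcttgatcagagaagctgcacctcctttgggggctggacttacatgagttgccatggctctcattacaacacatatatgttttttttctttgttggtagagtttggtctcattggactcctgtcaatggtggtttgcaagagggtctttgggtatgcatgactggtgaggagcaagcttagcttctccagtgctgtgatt
S100a6 (chr2:178398287-178398536, plus strand): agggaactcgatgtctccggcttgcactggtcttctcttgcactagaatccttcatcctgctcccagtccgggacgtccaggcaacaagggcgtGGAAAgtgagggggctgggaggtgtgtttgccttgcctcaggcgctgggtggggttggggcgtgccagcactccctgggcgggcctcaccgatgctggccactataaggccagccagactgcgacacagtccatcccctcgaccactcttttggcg
S100a9 (chr2:178490623-178490872, minus strand): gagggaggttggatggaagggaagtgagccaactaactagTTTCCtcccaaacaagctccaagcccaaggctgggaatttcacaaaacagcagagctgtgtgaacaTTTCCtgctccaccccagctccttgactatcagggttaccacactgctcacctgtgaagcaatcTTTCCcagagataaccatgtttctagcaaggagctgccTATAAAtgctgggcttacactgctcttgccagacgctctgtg

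TATAAA began at base -31 in S100a4 and at base -42 in S100a9, counted back from the start site, and it was in 12.9% of all 33469 promoters of this length. GGAAA was at -156 in S100a6 at -210, -144 and -80 in S100a9 and at -51 and -13 in S100a13, whose window is not shown, and 56.9% of promoters hold it. None of the 6 members' windows held TonE (5.17% of promoters), TGANTCA (6.34%) or TTNNGCAA (9.22%). The S100a5 window held none of the motifs searched, and its GC content of 46.0% was below the 57.6% of S100a4 and the 62.4% of S100a6. These are matches of letters in a short window and were not tied to any measured binding.

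Levels are the deposited log values, and the sources used here do not state the base. A difference of 1 log unit means 2-fold with base 2 or 2.72-fold with natural logarithms. Values ran from 0 to 9.504, array medians lay between 3.564 and 3.649, and lower quartiles between 2.476 and 2.696. Levels under the lower quartile were not shown to stand above background. The median SD within a group was 0.108 to 0.123 log units, and 3 arrays a group limit the precision. Levels of different genes are not compared, since each comes from its own probes. The arrays hold RNA of whole cultures, so fewer cells of a type and less RNA per cell cannot be told apart. Of 15 principal cell markers, the cells that IMCD cultures are named for, 9 had a mean above the lower quartile in the 300 culture and 13 in the 600 culture. The vasopressin-regulated water channel gene Aqp2 had a mean of 1.61 in the 300 culture, 6.50 in the 600 culture and 7.94 in the 900 challenge. It stood above the quartile in the 600 culture and its challenges and under it in the 300 culture and its challenges. Among the 9 markers above the quartile in the 300 culture were Krt18 (8.25), Krt8 (8.13), Cdh1 (7.33) and Gata3 (6.26). Aqp3 (2.87), Elf5 (3.12), Avpr2 (3.35) and Aqp4 (3.40) stood above it too. Those under it, besides Aqp2, were Scnn1b (1.83), Slc14a2 (1.98), Scnn1g (2.26), Hsd11b2 (2.43) and Scnn1a (2.49). These levels thus do not settle the label of collecting duct cells for the 300 culture.

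The S100a5 protein binds calcium, zinc and copper and is best known from olfactory neurons. Its level was 4.50, 4.28 and 4.59 in the 300 culture and 3.97, 4.24 and 4.20 in the 600 culture. After the 600 challenge it was 5.11, 5.24 and 5.29, and with cyclosporin A 5.18, 5.20 and 5.11. After the 900 challenge it was 6.42, 6.35 and 6.37, and with cyclosporin A 6.67, 6.72 and 6.70. Both challenges stood clear of the culture they started from. The 900 challenge with the drug stood above the one without, a difference that did not pass the adjusted test given below. The group means ordered as the 600 culture (4.13 ± 0.15, SD, n = 3), the 300 culture (4.46 ± 0.16), the 600 challenge with (5.16 ± 0.05) and without the drug (5.21 ± 0.09), and the 900 challenge without (6.38 ± 0.04) and with it (6.70 ± 0.02). The pair of 600 challenges overlapped. No other neighbours in this order did.

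S100a1, S100a4, S100a6 and S100a13 had the opposite order of the cultures from S100a5: all were higher at 600 mosmol/kg than at 300. S100a1, known from heart and skeletal muscle where it binds the calcium pump and the ryanodine receptor, had values of 3.20, 3.27 and 3.13 in the 300 culture and 5.06, 4.49 and 4.56 in the 600 culture. It measured 3.46, 3.41 and 3.39 after the 600 challenge and 5.42, 5.46 and 5.23 after the 900 challenge. The 600 challenge thus stayed close to the 300 culture, and the first array of the 600 culture stood above the other two. S100a4, which binds non-muscle myosin and is also used as a fibroblast marker in kidney, measured 3.95, 4.18 and 4.32 in the 300 culture, 5.65, 5.84 and 5.62 in the 600 culture, 4.54, 4.62 and 4.61 after the 600 challenge and 6.75, 6.77 and 6.58 after the 900 challenge. Its 4 groups without the drug did not overlap.

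S100a6, or calcyclin, binds the ubiquitin ligase adaptor CacyBP and is common in epithelia. It measured 5.72, 5.61 and 5.78 in the 300 culture, 6.60, 6.63 and 6.59 in the 600 culture, 5.79, 5.79 and 5.78 after the 600 challenge and 7.37, 7.39 and 7.32 after the 900 challenge. The 600 challenge overlapped the 300 culture and lay below the 600 culture at the same osmolality. S100a13, which takes part in the release of FGF1 and IL-1α by a route outside the secretory pathway, lay low in the 300 culture (2.79, 2.71 and 2.99) and the 600 challenge (3.09, 2.84 and 2.79), just over the lower quartile. It was higher in the 600 culture (3.60, 3.46 and 3.62) and the 900 challenge (4.29, 4.48 and 4.13). The plot of member levels by group shows the shared order of these 4 genes beside that of S100a5.

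**Figure D1:**
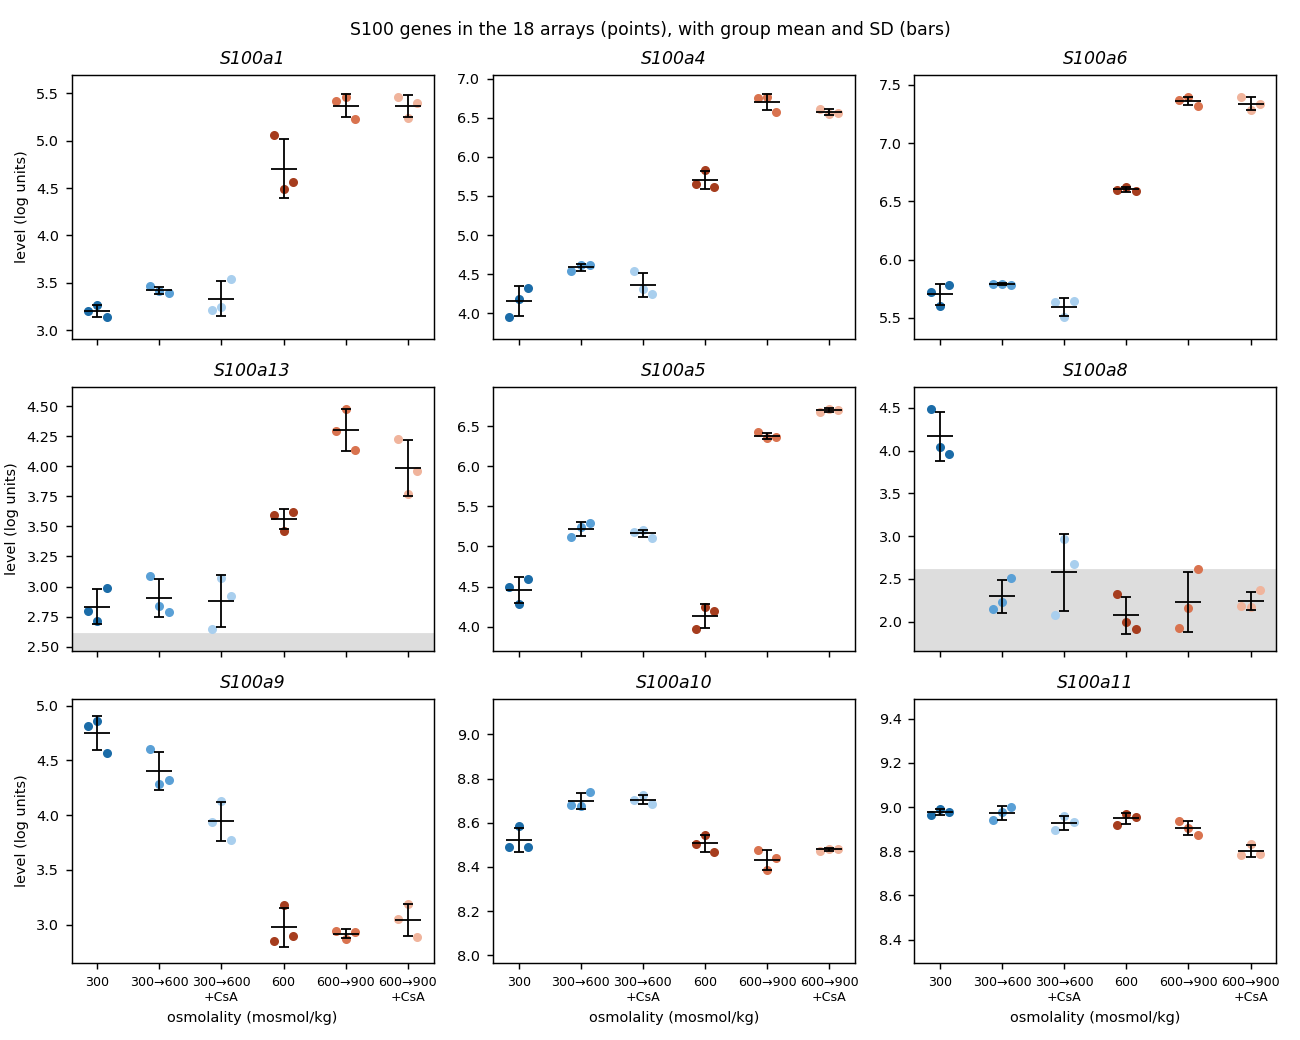
Level (log units) of the 9 S100 genes in each of the 18 arrays (points), with the group mean and SD (bars, n = 3), by osmolality of the culture and of the 24 h challenge, without or with cyclosporin A (CsA); the grey band lies under the mean lower quartile of the arrays and the vertical scales differ. S100a1, S100a4, S100a6 and S100a13 are higher in the 600 culture than in the 300 culture, S100a5 is highest in the 900 challenges, and S100a8 lies mostly in the grey band outside the 300 culture.

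S100a8 and S100a9, the calprotectin pair, were highest in the 300 culture. S100a8 measured 4.49, 4.04 and 3.97 there, and 13 of the 15 arrays outside that group lay under their array's lower quartile. Its means were 2.08 in the 600 culture, 2.30 in the 600 challenge and 2.23 in the 900 challenge, where the order of the values has no meaning this near background. S100a9 measured 4.82, 4.86 and 4.57 in the 300 culture and 2.85, 3.18 and 2.90 in the 600 culture. After the 600 challenge it was 4.61, 4.28 and 4.32, or 3.94, 4.13 and 3.77 with cyclosporin A, and after the 900 challenge 2.94, 2.87 and 2.94. The pair thus came apart in the 600 challenge, where S100a9 stayed far above the 600 culture and S100a8 did not.

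S100a10 and S100a11 bind annexins: S100a10 pairs with annexin A2 at the membrane and has lost the ability to bind calcium, and S100a11 binds annexin A1. Both kept within narrow limits. S100a10 ranged from 8.38 to 8.74 over all 18 arrays, with group means from 8.43 in the 900 challenge to 8.71 in the 600 challenge with the drug. The brightest S100a11 feature ranged from 8.78 to 9.00. Of the other 3 features of S100a11, 2 held identical values on every array (means 3.74 to 4.03) and the remaining feature had means of 6.52 to 6.71. The gene table lists 5 pseudogenes and 2 further genes named after S100a11, so the reading of its features is uncertain.

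Growth at 600 against 300 mosmol/kg split the members into a higher and a lower set. Limma with Benjamini-Hochberg adjustment over all features called 7 of the 9, 4 higher and 3 lower, where it called 17.2% of all features (8.33% higher and 8.84% lower). S100a4 differed by 1.55 ± 0.10 log units (SE), S100a1 by 1.51 ± 0.13, S100a6 by 0.90 ± 0.06 and S100a13 by 0.73 ± 0.14. For S100a4 that is 2.93-fold with base 2 or 4.72-fold with natural logarithms. S100a9 differed by -1.77 ± 0.12 and S100a5 by -0.32 ± 0.08. S100a8 differed by -2.09 ± 0.22, a size that is unsure because all 3 arrays of the 600 culture lay under the lower quartile. S100a10 (-0.02) and S100a11 (-0.03) did not pass the test. The S100a5 call was lost without replicate 1 or 3 of the 300 culture (-0.30 and -0.26) or replicate 1 of the 600 culture (-0.24, adjusted p = 0.0506 to 0.0686 over the 3), and when only these groups were fitted (adjusted p = 0.137).

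Marker levels moved alongside these members between the cultures. Principal cell markers were called higher in 9 of 15 and lower in 2 (list means per array 4.18 to 4.27 at 300 and 5.62 to 5.85 at 600), in the direction of S100a1, S100a4, S100a6 and S100a13. So were 3 of 4 loop of Henle markers (Slc12a1 by 1.92, Cldn16 by 0.68 and Kcnj1 by 0.61, with none lower), while endothelial markers were called higher in 3 of 6 and lower in 2. Fibroblast markers were called lower in 5 of 10 and higher in none (5.51 to 5.56 against 5.19 to 5.22), against the direction of S100a4. Macrophage and leukocyte markers were called lower in 13 of 14 (5.77 to 5.85 against 4.62 to 4.72), in the direction of S100a8 and S100a9. The part of these markers in the S100 levels was not tested. Of 9 neutrophil markers 1 was called lower and none higher, and their part was not tested either. On every array of the 300 culture 7 of the 9 lay under the lower quartile, and 2 had a group mean above it. The macrophage markers all lay above it there.

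The step from 600 to 900 mosmol/kg held the largest rise of a member without the drug, that of S100a5. Limma called 5 of the 9 higher and none lower, against 17.4% of all features called (6.43% higher and 11% lower). S100a5 was higher by 2.25 ± 0.08 log units, which is 4.75-fold for base 2 and 9.46-fold for a natural logarithm, and ranked 3rd from the top among the 28328 differences. S100a4 was higher by 1.00 ± 0.10, S100a6 by 0.76 ± 0.06, S100a13 by 0.74 ± 0.14 and S100a1 by 0.67 ± 0.13. S100a8 (0.16), S100a9 (-0.06), S100a10 (-0.07) and S100a11 (-0.04) did not pass, and the first of these started under the lower quartile, so a further fall could not have been seen. The S100a1 call was lost when only these groups were fitted (adjusted p = 0.0593). Over this step macrophage markers were called lower in 12 of 14 (4.62 to 4.72 before and 3.48 to 3.53 after) and fibroblast markers in 8 of 10 (5.19 to 5.22 and 4.61 to 4.70), and principal cell markers were called higher in 7 of 15 and lower in 3 (5.62 to 5.85 and 5.96 to 5.98). Their part in the S100 levels was not tested.

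The 900 challenge with cyclosporin A against the same 600 culture gave 6 calls among the members, 5 higher and 1 lower, where 17.8% of all features were called (7.27% higher and 10.5% lower). These values share their control arrays with the step without the drug and are set beside it only. S100a5 differed by 2.56 ± 0.08, the highest of all 28328 features, S100a4 by 0.88 ± 0.10, S100a6 by 0.73 ± 0.06, S100a1 by 0.66 ± 0.13 and S100a13 by 0.43 ± 0.14. The brightest S100a11 feature differed by -0.15 ± 0.04, and its other features did not pass. The S100a11 call was lost without replicate 2 or 3 of the 600 culture or replicate 1 or 3 of the drug group (-0.14, adjusted p = 0.0525 to 0.0643), and with equal array medians (-0.10). The S100a13 call was lost without any 1 of the 3 arrays of the 600 culture or replicate 1 or 3 of the drug group (0.31 to 0.46, adjusted p = 0.0732 to 0.188), and S100a1, S100a11 and S100a13 lost theirs when only these groups were fitted. Of all features called here 40.9% were higher, and 53.5% with the array medians set equal.

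In the step from 300 to 600 mosmol/kg S100a5, S100a4 and S100a10 were higher and S100a8 was lower. Limma called 3 of the 9 higher and 1 lower, where 14.4% of all features were called (6.36% higher and 8.07% lower). S100a5 was higher by 0.76 ± 0.08 log units (1.69-fold for base 2, 2.13-fold for a natural logarithm), S100a4 by 0.44 ± 0.10 and S100a10 by 0.18 ± 0.04. S100a8 was lower by -1.87 ± 0.22, a size that is unsure because it ended near background. S100a1 (0.22 ± 0.13), S100a6 (0.09 ± 0.06), S100a13 (0.07 ± 0.14), S100a11 (0.00) and S100a9 (-0.35 ± 0.12, adjusted p = 0.0748) did not pass. S100a9 passed without replicate 3 of the 300 culture (-0.44, adjusted p = 0.0453) or replicate 1 of the 600 challenge (-0.45, adjusted p = 0.0351). S100a10 no longer passed without replicate 1 or 3 of the 300 culture (0.16 each) or replicate 3 of the 600 challenge (0.16, adjusted p = 0.0541 to 0.0566 over the 3), and it and S100a4 (adjusted p = 0.0541) did not pass when only these groups were fitted. Macrophage markers were called lower in 12 of 14 over this step (5.77 to 5.85 before and 4.46 to 4.59 after), as S100a8 was. So were 7 of 10 fibroblast markers (none higher), against the direction of S100a4, and 5 of 6 endothelial markers (1 higher). The part of these markers in the S100 levels was not tested. Neutrophil markers were called lower in 2 of 9 and higher in none, and their part was not tested either. Of the 9, 2 had a mean above the lower quartile in the 300 culture and 1 in the 600 challenge.

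With cyclosporin A the 600 challenge gave 4 calls against the 300 culture, 2 higher and 2 lower, where 14.1% of all features were called (6.21% higher and 7.85% lower). S100a5 differed by 0.71 ± 0.08, S100a10 by 0.18 ± 0.04, S100a8 by -1.59 ± 0.22 and S100a9 by -0.81 ± 0.12. S100a4, at 0.21 ± 0.10, did not pass (adjusted p = 0.193). The 300 culture is the control of both challenges, so these values are not independent of those without the drug. When only these groups were fitted, S100a10 did not pass (adjusted p = 0.113).

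Acute and lasting exposure to 600 mosmol/kg can be set side by side in the 600 challenge and the 600 culture, which also differ in how the cells were grown. Limma called 7 of the 9 members, 3 higher after the acute challenge and 4 lower, where it called 16.4% of all features (7.69% higher and 8.74% lower). S100a1 (-1.28 ± 0.13), S100a4 (-1.11 ± 0.10), S100a6 (-0.82 ± 0.06) and S100a13 (-0.66 ± 0.14) were lower in the acute challenge. Markers of several cell types were lower there too: 10 of 15 of the principal cell (none higher), 6 of 10 of fibroblasts (1 higher), 5 of 6 of endothelium and 3 of 4 of the loop of Henle (none higher in either). Their part in these S100 levels was not tested. S100a9 (1.43 ± 0.12), S100a5 (1.08 ± 0.08) and S100a10 (0.19 ± 0.04) were higher. S100a8, near background in both, did not pass (0.22 ± 0.22). Macrophage markers were called higher in 2 of 14 and lower in 4, with list means of 4.46 to 4.59 in the challenge and 4.62 to 4.72 in the culture. The 2 called higher, in the direction of S100a9, were Cd14 (0.42 ± 0.06) and C1qb (0.44 ± 0.08). The macrophage marker Adgre1 (means of 4.35 in the challenge and 2.87 in the culture) is not on that list. It was picked for its likeness to S100a9 over these same arrays, so its direction follows from that choice. The 4 called lower were Csf1r (-0.65), Tyrobp (-0.62), Coro1a (-0.50) and Itgam (-0.45). The part of macrophages in the S100a9 level was not tested. S100a10 did not pass when only these groups were fitted (adjusted p = 0.092).

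**Figure D2:**
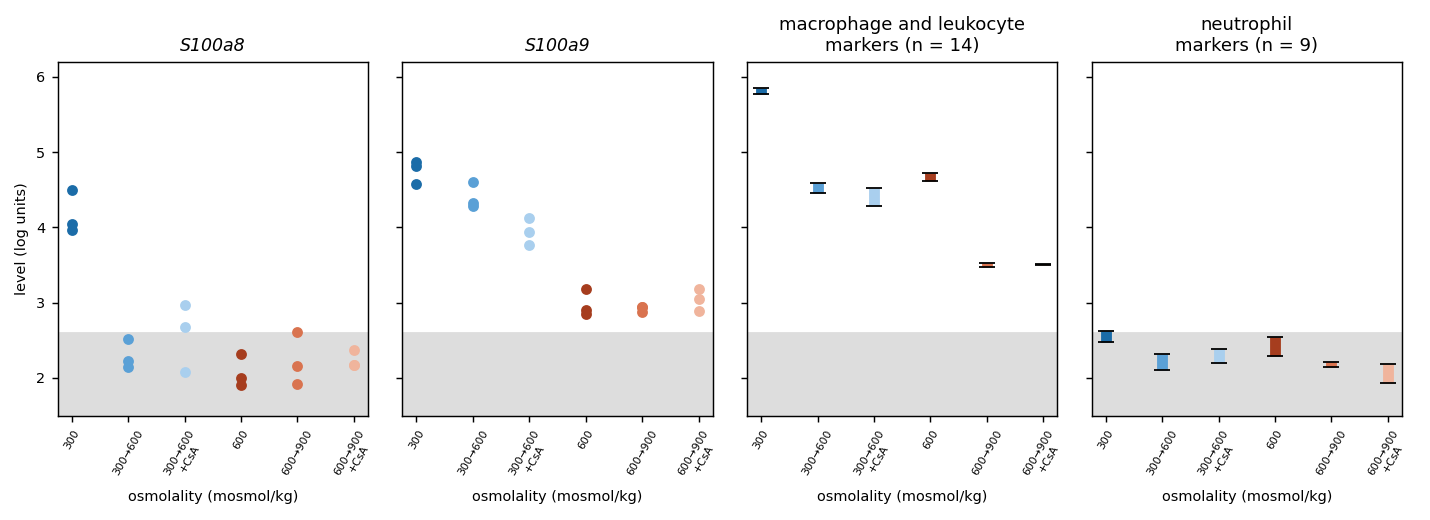
Levels (log units) of S100a8 and S100a9 in each array (points) and, for the macrophage and leukocyte list and the neutrophil list, the range over the 3 arrays of the list's mean level (bars), by group; the grey band lies under the mean lower quartile of the arrays. S100a9 is higher in the 600 challenge than in the 600 culture while the macrophage list is not, and the neutrophil list stays near or below the quartile, from 1.93 to 2.63.

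The response of the members to the 2 steps was compared in a test of the difference itself, the step from 600 to 900 minus the step from 300 to 600. Limma called 6 of the 9, 5 higher and 1 lower, where it called 7.58% of all features (3.52% higher and 4.06% lower). For S100a5 the second step was larger by 1.49 ± 0.12 log units, and for S100a6 by 0.67 ± 0.08. S100a4 differed by 0.56 ± 0.14 (adjusted p = 0.0237), S100a13 by 0.67 ± 0.19 (adjusted p = 0.049) and S100a10 by -0.25 ± 0.06 (adjusted p = 0.023), and S100a8, which fell in the first step and started near background in the second, by 2.03 ± 0.31. The S100a4 call was lost without any 1 of 7 arrays (replicate 2 or 3 of the 300 culture, 1 or 3 of the 600 culture, 1 of the 600 challenge, and 1 or 2 of the 900 challenge, with a lowest value of 0.47 and adjusted p = 0.0506 to 0.0605). That of S100a10 was lost without any 1 of 5 arrays (replicate 1 or 3 of the 300 culture, 2 of the 600 culture, 3 of the 600 challenge or 2 of the 900 challenge, -0.24 to -0.23), and that of S100a13 without any 1 of 10 of the 12 arrays (0.58 to 0.73, adjusted p up to 0.117), only replicate 1 of the 600 challenge and replicate 3 of the 900 challenge being without effect on it. S100a1, at 0.45 ± 0.18, did not pass (adjusted p = 0.178), but did without replicate 1 of the 600 culture (0.63, adjusted p = 0.0144), the array that stood above the other two.

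Cyclosporin A against the same challenge without it gave no call among the 9 members at either osmolality. In limma 0.409% of all features were called for the drug in the 600 challenge and 0.505% in the 900 challenge. At an unadjusted p under 0.05, 3 members passed in the 600 challenge (S100a4, S100a6 and S100a9) and 3 in the 900 challenge (S100a5, S100a11 and S100a13), against 8.49% and 10.6% of all features. S100a9 had the largest drug difference of the members in the 600 challenge, -0.46 with a 95% interval of -0.72 to -0.20 and adjusted p = 0.161. S100a5 in the 900 challenge differed by 0.32 (interval 0.14 to 0.49, adjusted p = 0.128). A model whose variance follows the signal level called S100a5 (adjusted p = 0.0433) and S100a11 (-0.10, adjusted p = 0.0259) in the 900 challenge. That model called 383 features on the whole array for this comparison in place of 143, and a fit of only these groups called 0.

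The other members had smaller or less precise drug differences. In the 600 challenge S100a4 differed by -0.23 (interval -0.44 to -0.02) and S100a6 by -0.19 (-0.31 to -0.07). In the 900 challenge S100a13 differed by -0.32 (-0.61 to -0.02) and the brightest S100a11 feature by -0.10 (-0.19 to -0.02). S100a6 in the 900 challenge differed by -0.02 (-0.14 to 0.10) and S100a10 by 0.01 (-0.09 to 0.10) in the 600 challenge, so that drug differences of more than 0.14 lay outside both intervals. The interval of S100a8 reached from -0.20 to 0.76 in the 600 challenge. The drug differences at the 2 osmolalities were not shown to differ for any member (0.0459% of all features were called in that test). At an unadjusted p under 0.05, 3 members passed (S100a5 at 0.37, S100a6 at 0.17 and S100a9 at 0.58), against 7.59% of all features.

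**Figure D3:**
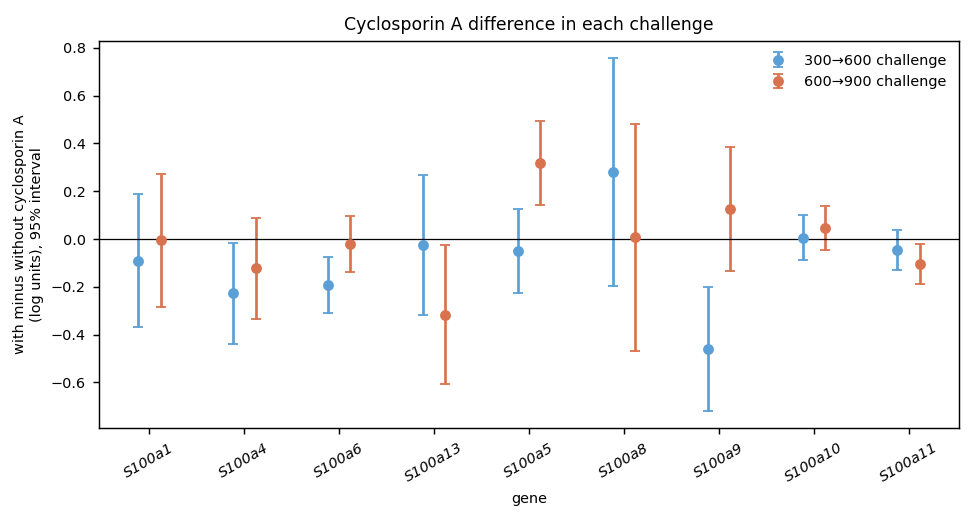
Difference with minus without cyclosporin A (log units, points) with its 95% interval (bars) for each member in the 600 challenge (blue) and the 900 challenge (orange), 3 arrays a group. In the 600 challenge the intervals of S100a4, S100a6 and S100a9 (-0.72 to -0.20) lie clear of 0. In the 900 challenge those of S100a5 (0.14 to 0.49), S100a11 and S100a13 do. No member passed the test after adjustment over all features.

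Along chromosome 2 the gene table lists 11 S100 genes in a row, from S100a1 to S100a9. Read in that order as S100a1, S100a13, S100a14, S100a16, S100a3, S100a4, S100a5, S100a6, S100a7a, S100a8 and S100a9, every gene but S100a14 was measured. From S100a1 through S100a7a all 8 measured genes were called higher in the 900 challenge, where 6.43% of all features were called higher. S100a8 and S100a9 at the other end were not called. Of these 8, 3 are not among the 9 members: S100a16 was higher by 0.51 ± 0.06, S100a3 by 0.78 ± 0.19 and S100a7a by 0.65 ± 0.17. The S100a7a size is unsure, since its mean in the 600 culture was 2.66 with 1 of 3 arrays under the lower quartile. With cyclosporin A, S100a7a did not pass limma's test (0.20 ± 0.17, adjusted p = 0.525). S100a16 (0.40 ± 0.06) and S100a3 (0.59 ± 0.19) did, though S100a3 values overlapped the 600 culture. The S100a1 call without the drug was lost when only the groups compared were fitted (adjusted p = 0.0593). In the 600 against the 300 culture the row was uneven, with S100a5 lower between S100a4 and S100a6, both higher. The measured neighbours Ilf2 and Snapin, just before S100a1, were also called higher in the 900 challenge (0.68 ± 0.13 and 0.31 ± 0.06).

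**Figure D4:**
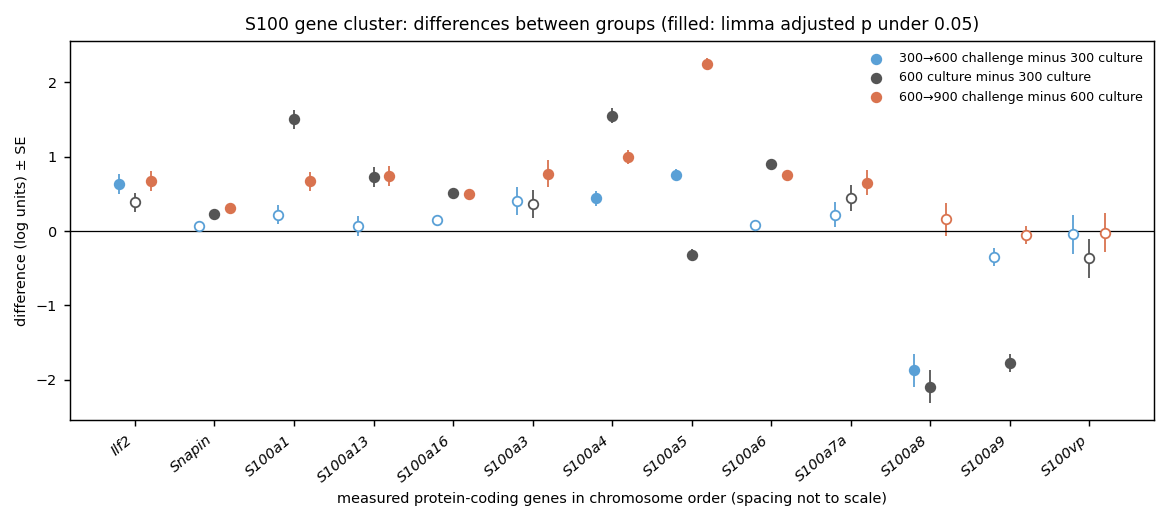
Differences between groups (log units, points, with SE as bars) for the measured genes around the S100 row on chromosome 2, in gene order and not to scale; filled points passed limma's test, and blue marks the 600 challenge. In the 900 challenge (orange) all 8 measured genes from S100a1 to S100a7a are higher, with S100a5 at 2.25, where 6.43% of all features were called higher. The size for S100a7a is unsure, since it started near the lower quartile in the 600 culture. In the 600 against the 300 culture (grey) S100a5 is lower while S100a4 and S100a6 are higher.

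Of 11 further S100 genes listed, 6 were measured. In the 900 challenge 4 of the 6 were called higher and none lower, in the 600 challenge 1 higher, and in the 600 against the 300 culture 2 higher. Over all features 6.43%, 6.36% and 8.33% were called higher in these 3 comparisons. S100g, or calbindin-D9k, which ferries calcium across transporting epithelia, had means of 1.88 in the 300 culture, 2.55 in the 600 challenge, 3.67 in the 600 culture and 4.47 in the 900 challenge. It was the only one of the 6 called for cyclosporin A, at -0.49 ± 0.09 in the 600 challenge (adjusted p = 0.0348). Its level with the drug (2.06) lay under the lower quartile, as did 2 of the 3 arrays without it, so this size is unsure. S100g was also the 1 called higher in the 600 challenge (0.67 ± 0.09). That size is unsure too, since all 3 arrays of the 300 culture lay under the lower quartile. S100b, known from glia, was not called in any of these 3 comparisons of osmolality.

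The annexins, targets of S100a10, S100a11, S100a6 and S100a4, did not move as a group. Of 11 measured, 4 were called higher and 3 lower in the 900 challenge (median 0.07, and -0.01 over all features), 1 and 2 in the 600 challenge (median 0.03 against 0.02), and 5 and 2 in the 600 against the 300 culture (median -0.05 against 0.00). Over all features 6.43% were called higher and 11% lower in the 900 challenge. The shares were 6.36% and 8.07% in the 600 challenge and 8.33% and 8.84% between the cultures. Anxa2, the partner of S100a10, was level with means from 8.21 to 8.38 and was called in the 900 challenge (0.17 ± 0.04). Anxa1, the partner of S100a11, was lower there (-0.22 ± 0.05). Anxa6, which binds membranes at raised calcium, was lower in all 3 comparisons (-0.72, -1.26 and -0.49 in the order above), and Anxa8 was higher in the 900 challenge (0.43) and the 600 culture (1.21) and lower in the 600 challenge (-0.47).

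Receptors and other binding partners were mixed too. Of 20 measured, 2 were called higher and 5 lower in the 900 challenge (median -0.06), 1 and 4 in the 600 challenge (median -0.01), and 3 and 4 in the 600 against the 300 culture (median -0.01). The shares over all features are those given beside the annexins. Il1a, the cytokine whose release S100a13 assists, had means of 7.43 in the 300 culture, 6.55 in the 600 challenge, 4.19 in the 600 culture and 3.62 in the 900 challenge, and so lay lowest where S100a13 lay highest. Cybb, the phagocyte NADPH oxidase subunit to which calprotectin carries arachidonic acid, was lower in all 3 comparisons (-1.63 ± 0.10, -1.45 ± 0.10 and -1.09 ± 0.10). Cacybp, the partner of S100a6, was higher in the 600 culture (0.71 ± 0.06) and at 0.02 in the 900 challenge. Plat, the tissue plasminogen activator bound by S100a10, was higher in the 900 challenge (0.37 ± 0.04). The RAGE gene Ager lay under the lower quartile on 15 of the 18 arrays, and Tlr4 was not called in any of the 3 (-0.05, 0.07 and -0.13). Syt1 and Plg lay under the lower quartile on all 18 arrays, Trpv5, Trpv6, Ryr1 and Ryr2 on 17 and Kcnk3 on 14. Trpv6 was 1 of the 5 called lower in the 900 challenge (-0.87 ± 0.21). The counts and medians of this list thus rest partly on genes near background.

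Among 19 measured genes of other EF-hand proteins, 6 were called higher and 5 lower in the 900 challenge (median 0.06), 1 and 3 in the 600 challenge (median 0.00), and 2 and 3 in the 600 against the 300 culture (median 0.02). Here too the shares over all features are those given beside the annexins. Capn1, the calcium-activated protease calpain-1, was higher in all 3 (0.47, 0.15 and 0.66). Calb2, calretinin, was higher in the 900 challenge (0.85 ± 0.15) from a mean of 2.10 under the lower quartile. The calmodulin genes Calm2 and Calm3 were lower there (-0.17 and -0.16). Calb1 and Ocm lay under the lower quartile on all 18 arrays, and Pvalb and Calml3 on 17.

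The named genes most like each member over the 18 arrays were sought by Pearson correlation among 14206 candidates. These correlations describe 6 groups of arrays more than 18 separate points, and the arrays share their group and scaling. S100a5 was closest to Sla, an adaptor protein (0.976), Sqor (0.964) and Kif3c (0.96), with Isyna1, which makes inositol, also near the top (0.959). S100a1 was closest to the vitamin D enzyme gene Cyp27b1 (0.992), with Aqp2 among the next (0.99), and S100a4 (0.992) and S100a6 (0.997) shared Akr7a3 as the closest gene. S100a8 was closest to the macrophage receptor gene Cd163 (0.943), then to Slc43a2 (0.935) and Copb2 (0.93). Because 13 of the 15 arrays outside the 300 culture lay under the lower quartile for S100a8, its correlations rest mostly on that group. S100a9 was closest to Il1a (0.977), the macrophage marker Adgre1 (0.972) and Pdzk1ip1 (0.971). S100a13 was closest to Capn1 (0.977), S100a10 to Gpbp1l1 (0.967) and S100a11 to Snx24 (0.904).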

How the data were processed

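The deposited values are log-scale expression levels per feature of an Affymetrix whole-transcript rat array, for which the authors labelled total RNA with biotin, per the labels' protocols. The base of the logarithm, the background correction and the normalization are not given in the sources used here, and the values were used as deposited, without a filter. Testing had been planned on log2 values, and a change of base leaves every p-value as it is. No pair of arrays held identical values.

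The platform's annotation names 15295 features by a single symbol and 322 by several, and 12711 are not in it. A gene with several features is represented by the one with the highest mean over the 18 arrays. GRCr8 tables of RefSeq gave gene order and promoters, with the 3 other members' promoters and all proteins not used here.

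Group means of all 18 arrays were fitted with limma 3.58.1 in R 4.3.3 (residual degrees of freedom 12, prior 2.03), with contrasts, moderated variances and Benjamini-Hochberg adjustment over 28328 features at a threshold of 0.05. Intervals of 95% use the fit's degrees of freedom. The series text lists 4 comparisons of challenge against culture; those of the drug, of the cultures, of the acute challenge with the 600 culture and of the 2 differences of effects were added. The script was tested on simulated arrays of 28328 features. Only 100 features were changed by 0.5 and 100 by 1, in the 900 challenge, with no other group difference. Against the 600 culture it recovered 42% of changes of 0.5 and 86% of changes of 1, with 5 false calls among the unchanged. In the real data 17.4% of features were called in that comparison, so these rates need not hold for it. Members and gene lists were chosen with earlier results of these data known, and the members were all named, with any listed gene open to naming. Alternatives were equal array medians, quantile normalization, a filter on low features, a variance trend, array weights, a replicate block, fits of only the groups compared and leaving out each array.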

Additional observations from a re-analysis of the deposited data

Results flagged for a closer look

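Effects of the 2 osmotic steps differed for 6 of the 9 members in limma's test of the difference itself (the step from 600 to 900 minus the step from 300 to 600, in log units), where 7.58% of all features were called. S100a5 differed by 1.489 ± 0.116 (SE, adjusted p = 4.58e-06), S100a6 by 0.672 ± 0.077 (adjusted p = 0.000103) and S100a4 by 0.559 ± 0.138 (adjusted p = 0.0237). The values for S100a13 and S100a10 were 0.671 ± 0.193 (adjusted p = 0.049) and -0.251 ± 0.062 (adjusted p = 0.023). The call of S100a4 was lost without any 1 of 7 of the 12 arrays, that of S100a10 without any 1 of 5 and that of S100a13 without any 1 of 10, and S100a13 did not pass with a replicate block either (adjusted p = 0.0767). For S100a8 the value was 2.028 ± 0.314 (adjusted p = 0.00108), with the 600 culture and 900 challenge both near background. The groups of 3 arrays were too small for a search for single outlying arrays.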

How the results depend on the processing

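No member's difference changed direction while called, in any alternative run. Fits of only the 2 groups compared called 2 members in place of 4 for the step from 300 to 600, and 3 in place of 6 for the 900 challenge with cyclosporin A. A variance trend called 2 members in place of 0 for the drug in the 900 challenge. Leaving out 1 array in turn gave 3 to 6 calls for the difference of the steps against 6. Equal medians, quantile normalization, array weights and the low-feature filter kept the members' counts within 1.5 times, and S100a8 could not be tested under that filter. Over all features, fits of only the groups compared called 2479 in place of 3982 (600 challenge with the drug), 2860 in place of 4934 (900 challenge), 3059 in place of 5040 (900 challenge with the drug) and 3071 in place of 4655 (600 challenge against 600 culture). Drug calls over all features were 116 in the 600 challenge (178 with the filter, 272 with the trend, 0 with only these groups and 39 to 67 without 1 array) and 143 in the 900 challenge (233, 383, 0 and 43 to 76), and 13 for their difference (27 with the filter and 37 with the trend, down to 4 without 1 array). The cause was not tested.

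Replicate numbers of the titles did not pair the arrays: over 45 same-numbered pairs the correlation of deviations ran from -0.129 to 0.108, with 1 over 0.1. A replicate block changed 3 member calls: S100a9 in the step from 300 to 600 passed (adjusted p = 0.0458, making 5 calls), and S100a13 did not pass in the 900 challenge with the drug (adjusted p = 0.0669, leaving 5) or in the difference of the steps (adjusted p = 0.0767, leaving 5). Signal over background was not given, which limits what can be said of S100a8 and of other levels under the lower quartile.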
